A study of Mus musculus with 4 samples.

Results

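The genes described here are 10 members of the interleukin 1 system and the inflammasome, taken by symbol from the 23284 symbols for which expression values were deposited. They are the ligands Il1a, Il1b and Il18, the receptor antagonist Il1rn, the decoy receptor Il1r2, the sensor Nlrp3, the adaptor Pycard, the proteases Casp1 and Casp4 and the pore former Gsdmd. All 10 symbols were found, each with 1 value per library, and 9 reached the expression minimum for testing. The cells were macrophages grown from the bone marrow of wild-type mice, of a strain, sex and age not given in the sources used here. Both groups received lipopolysaccharide (LPS), a bacterial cell wall component that induces inflammatory genes, at 1 µg/ml for 1 h. For the next 24 h one group was given mouse galectin-1 made as a recombinant protein, a lectin that binds galactose-containing glycans, at a dose not given in the sources used here, and the other was given phosphate-buffered saline (vehicle). There were 2 libraries in each group. No culture without LPS was analysed here, so every level below is a level after LPS. The series asked whether galectin-1 acts against inflammation in bowel disease, and the libraries compare the character of macrophages with and without it.

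Interleukin 1 alpha and interleukin 1 beta are alarm cytokines that bind the same receptor and start fever, leukocyte recruitment and further cytokine production. Interleukin 1 beta and interleukin 18 are made as inactive precursors. In macrophages, LPS induces the transcripts of the interleukin 1 beta precursor and of the sensor NLRP3. A second stimulus lets NLRP3 assemble with the adaptor ASC, the product of Pycard, and with caspase 1, which cleaves both precursors. Caspase 4, known in the mouse as caspase 11, binds LPS in the cytosol and, like caspase 1, cleaves gasdermin D, which forms the membrane pores of pyroptotic death. Transcript levels do not show cleavage or release.

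The promoters of the 3 ligand genes are shown because these were the members that passed the test between the groups. Each sequence is the 250 bases before the transcription start in a RefSeq promoter table (GRCm38.p6, which the mm10 build corresponds to), read 5′ to 3′ on the strand of the gene. None of the windows holds a GENCODE exon. The windows are chr2:129371140-129371389 on the minus strand for Il1b, chr2:129309973-129310222 on the minus strand for Il1a and chr9:50554450-50554699 on the plus strand for Il18. For Il1a the RefSeq gene as annotated, which ends at 129310186, covers most of the window. For Il1b, which ends at 129371164, the gene covers only the bases nearest the start. Distances below are counted from the start in the promoter table. Capitals mark matches on either strand to the TATA box (TATAAA), a C/EBP motif (TTNNGNAA) and the PU.1 core (GAGGAA), 3 elements of macrophage and inducible promoters.
Il1b: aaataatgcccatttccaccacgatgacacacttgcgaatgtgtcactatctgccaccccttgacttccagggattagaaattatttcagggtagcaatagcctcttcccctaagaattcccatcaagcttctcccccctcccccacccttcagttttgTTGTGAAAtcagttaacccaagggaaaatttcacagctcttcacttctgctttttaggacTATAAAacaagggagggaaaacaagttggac
Il1a: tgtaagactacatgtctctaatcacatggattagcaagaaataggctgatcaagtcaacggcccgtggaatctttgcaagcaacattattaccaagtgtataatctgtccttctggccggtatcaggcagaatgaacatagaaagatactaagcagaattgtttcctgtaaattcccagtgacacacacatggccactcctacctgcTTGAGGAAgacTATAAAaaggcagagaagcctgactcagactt
Il18: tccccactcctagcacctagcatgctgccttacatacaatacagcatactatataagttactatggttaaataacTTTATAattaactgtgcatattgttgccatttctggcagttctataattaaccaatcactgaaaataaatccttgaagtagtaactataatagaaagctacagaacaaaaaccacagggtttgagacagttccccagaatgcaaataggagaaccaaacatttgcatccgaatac
The Il1b window held a TATA box 31 to 26 bases before the start and a C/EBP match 91 to 84 bases before it. The Il1a window held a TATA box 32 to 27 bases before the start and a C/EBP match 43 to 36 bases before it, which overlaps its PU.1 match at 41 to 36. The Il18 window held a single match, a TATA box on the opposite strand 175 to 170 bases before the start. Its base composition was 35.6% G and C, against 44.4% for Il1b and 42.4% for Il1a. Of the 32851 windows of this length in the table, 12.4% held TATAAA, 36.8% the C/EBP motif and 23.3% the PU.1 core on either strand. The consensus of NF-kB, the main transcription factor of the LPS response, was present in 3.90% of all windows and had no match in these 3. Among the members with a window, 9 of 10, it was matched in a window of Nlrp3 and in both windows of Casp4. The Casp4 windows overlap almost fully and share the same matched stretch. A match is a stretch of letters and not a measured site, and its absence says only that the letters are not in this window.

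The values are FPKM, fragments scaled to transcript length and to the size of the library, which allows levels to be set side by side between genes. With vehicle, Il1rn had the highest mean level of the 10 members at 733 FPKM, followed by Il1b (372), Casp1 (257), Casp4 (214), Nlrp3 (124), Il1a (119), Gsdmd (117), Il18 (49.5), Pycard (37.6) and Il1r2 (0.644). Among neighbours in this order, Il1a and Gsdmd overlapped between libraries and the others did not. With galectin-1 the order was the same except that Gsdmd, at 118 FPKM, stood above Il1a, at 92.4 FPKM, and no neighbours overlapped. All members but Il1r2 were well expressed: Il1rn ranked 117 and Pycard 2048 among the 9380 genes tested when ordered from the highest mean.

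**Figure D1:**
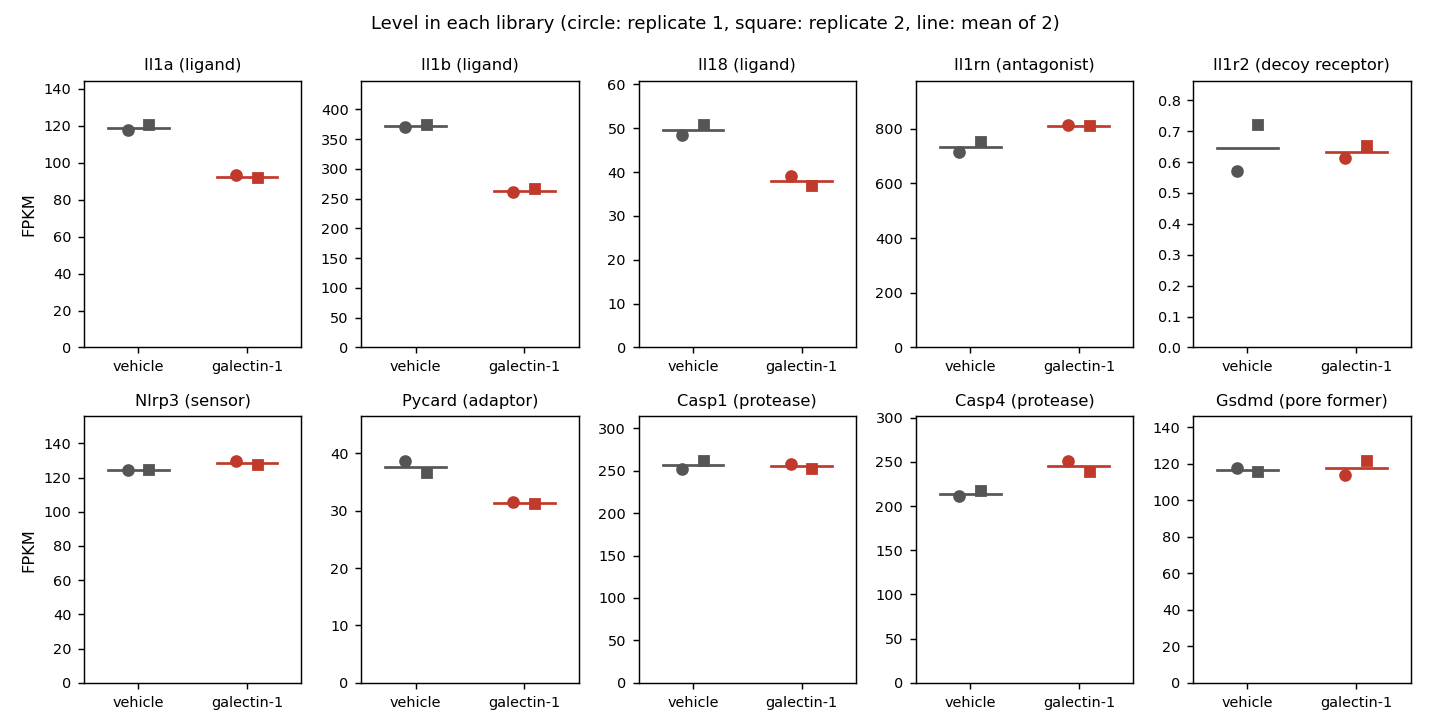
FPKM (vertical axes, each from 0 and with its own range) of the 10 members in the 2 vehicle libraries (grey) and the 2 galectin-1 libraries (red), with the mean of each group as a line. Il1a, Il1b, Il18 and Pycard are lower and Casp4, Il1rn and, slightly, Nlrp3 higher in both galectin-1 libraries. The groups overlap for Casp1, Gsdmd and Il1r2.

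All 3 ligand transcripts fell with galectin-1, while no member rose past the threshold and 6 of the 9 tested did not pass. The test was limma on log2(FPKM + 1) over the 9380 genes whose mean reached 1 FPKM, with a Benjamini-Hochberg adjusted p under 0.05. It called 1.19% of these genes in either direction, 0.586% as lower and 0.608% as higher. Of the 9 tested members, 3 were called lower and 0 higher. The members were chosen with earlier results of these data known, so these shares do not compare an unbiased set with all genes. The median difference of the 9 members on the log2 scale was -0.01, close to the 0.00 over all genes tested, with 4 positive and 5 negative differences. The groups did not overlap for 7 of the 9 (4 lower and 3 higher with galectin-1), as for 55.4% of all genes tested (26.2% lower and 29.1% higher). An unadjusted p under 0.05 was found for 6 of the 9 and for 23.2% of all genes. Nothing in the labels says that libraries came from separate cultures or mice, so these p-values measure the spread between samples, which may be technical. In bulk RNA, fewer cells that express a gene and less RNA per cell cannot be told apart.

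Il1b (gene ID 16176, chr2:129364569-129371164) encodes the precursor of interleukin 1 beta. It had 371 and 373 FPKM in vehicle replicates 1 and 2 and 261 and 266 FPKM in galectin-1 replicates 1 and 2. Both galectin-1 libraries lay far below both vehicle libraries, and the replicates of a group lay close together. The mean went from 372 ± 1.51 to 264 ± 3.90 FPKM (SD, n = 2 per group), which is 29.2% lower. On the log2(FPKM + 1) scale the difference was -0.50 with a standard error of 0.03 and a 95% interval from -0.57 to -0.43 (limma, adjusted p = 0.00612). By p it ranked 4 among the 9380 genes and by size of decrease 69.

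Il1a (gene ID 16175, chr2:129299609-129310186), whose product is active without caspase 1, lies 54382 bp from Il1b. It had 118 and 120.2 FPKM with vehicle and 93.1 and 91.7 FPKM with galectin-1. The groups were again clearly apart, with a mean of 119 ± 1.77 against 92.4 ± 0.983 FPKM (SD, n = 2), 22.3% lower. The log2 difference was -0.36 with a standard error of 0.03 and a 95% interval from -0.44 to -0.28 (limma, adjusted p = 0.0251). Il18 (gene ID 16173, chr9:50554700-50581841), the precursor of an inducer of interferon gamma, had 48.4 and 50.6 FPKM with vehicle and 39.2 and 36.8 FPKM with galectin-1. Its mean went from 49.5 ± 1.57 to 38.0 ± 1.63 FPKM (SD, n = 2), 23.3% lower. The 2 galectin-1 libraries were both below the 2 vehicle libraries, with a log2 difference of -0.37, a standard error of 0.05 and a 95% interval from -0.49 to -0.26 (limma, adjusted p = 0.0432).

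The calls of Il1a and Il18 depended on having all 4 libraries, and that of Il1b on vehicle replicate 2. Without any single library Il1a had log2 differences from -0.38 to -0.35 and limma adjusted p from 0.101 to 0.159. Il18 had -0.42 to -0.33 and adjusted p from 0.152 to 0.221. Il1b lost its call without vehicle replicate 2 (limma, adjusted p = 0.0553) and passed in the other 3 of these fits, with adjusted p from 0.0289 to 0.0474. With the same log2 differences, all 3 calls also ended with no filter on low values, where Il1b had an adjusted p of 0.0637, and in limma without the variance trend, where it was 0.138.

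Genes on the opposite strand overlap each ligand gene, and the sources used here do not give whether strand was used for the deposited values, so reads of such pairs cannot be told apart. The overlapping RNAs were far less abundant. Gm14047 (RefSeq symbol Il1bos), across Il1b, had 0.187 to 0.484 FPKM in the 4 libraries, and Gm14023, across Il1a, had 0.133 to 0.472 FPKM. Across Il18, the carotenoid oxygenase gene Bco2 had 3.27 and 2.98 FPKM with vehicle and 2.06 and 1.99 FPKM with galectin-1, and Tex12, a gene of meiotic chromosomes, had 0.544 to 1.61 FPKM.

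**Figure D2:**
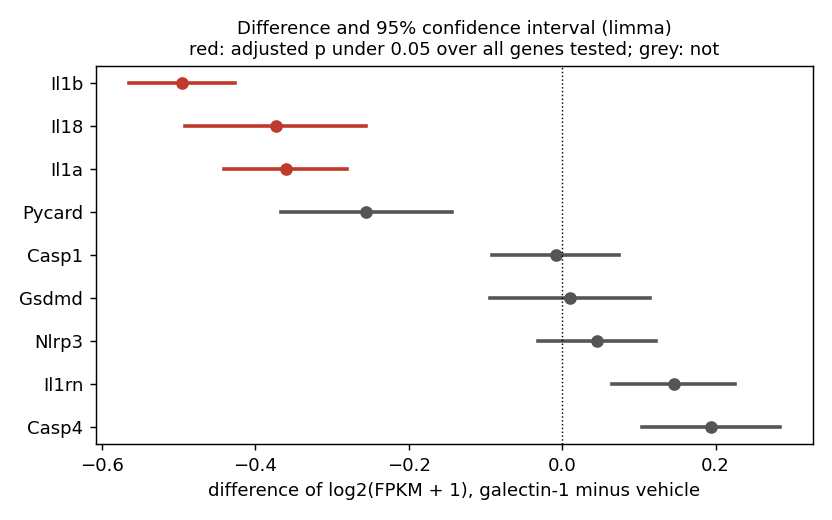
Difference of log2(FPKM + 1), galectin-1 minus vehicle (horizontal axis), of the 9 tested members, with the estimate as a point and the 95% confidence interval of limma as a line (2 libraries per group). Il1b, Il18 and Il1a, in red, have an adjusted p under 0.05, and the intervals of Casp1, Gsdmd and Nlrp3 include 0.

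Il1rn (gene ID 16181, chr2:24336860-24351491) encodes the secreted antagonist that occupies the interleukin 1 receptor without signalling. It had 715 and 752 FPKM with vehicle and 812 and 809.9 FPKM with galectin-1. Both galectin-1 libraries were above both vehicle libraries, but the vehicle libraries differed from each other by more than the galectin-1 libraries did. The mean was 733 ± 26.0 FPKM with vehicle and 811 ± 1.53 FPKM with galectin-1 (SD, n = 2). The log2 difference of 0.15, with a standard error of 0.03 and a 95% interval from 0.07 to 0.23, did not pass (limma, adjusted p = 0.0893). Il1r2 (gene ID 16178, chr1:40084692-40125230), a decoy receptor that binds interleukin 1 without signalling, had 0.570 and 0.718 FPKM with vehicle and 0.615 and 0.653 FPKM with galectin-1. It stayed under the minimum of 1 FPKM and was not tested, and its groups overlapped.

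Since agonist and antagonist compete for a receptor, their ratio within each library was taken, a value free of any scaling of the library. The ratio of Il1rn to Il1b FPKM was 1.93 and 2.01 in the vehicle libraries and 3.11 and 3.04 in the galectin-1 libraries. The mean ratio was 1.97 ± 0.0619 with vehicle and 3.08 ± 0.0514 with galectin-1 (SD, n = 2). Its groups could not overlap, because Il1b was lower and Il1rn higher in both galectin-1 libraries, so the ratio restates those differences. The ratios are given as a description with no test, and an exact permutation test of 2 against 2 libraries could not give a 2-sided p below 0.333. The ratio of Il1b to Il1a was 3.15 and 3.10 with vehicle and 2.80 and 2.90 with galectin-1, lower in both galectin-1 libraries. The ratio of Il18 to Il1b was 0.130 and 0.136 with vehicle and 0.150 and 0.138 with galectin-1, where the nearest libraries of the groups were almost equal.

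**Figure D3:**
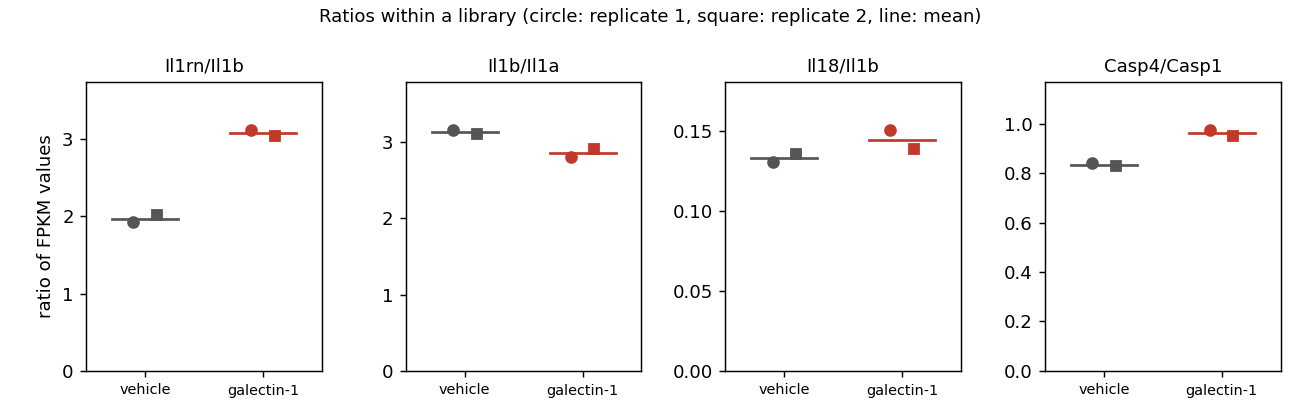
Ratio of 2 members' FPKM values within each library (vertical axes, from 0), for the 2 vehicle libraries in grey and the 2 galectin-1 libraries in red, with group means as lines. The ratio of Il1rn to Il1b is 1.93 and 2.01 with vehicle and 3.11 and 3.04 with galectin-1, the widest separation of the 4 ratios.

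None of the 5 inflammasome components passed the test: Pycard lay lower with galectin-1, Casp4 higher, and Nlrp3, Casp1 and Gsdmd within a few percent of the vehicle level. Nlrp3 (gene ID 216799, chr11:59541569-59566955), the sensor whose transcript LPS induces along with that of Il1b, had 125 and 124 FPKM with vehicle and 129.8 and 127 FPKM with galectin-1. The galectin-1 libraries lay slightly above the vehicle libraries. The log2 difference was 0.05 with a 95% interval from -0.03 to 0.12 (limma, adjusted p = 0.430), an interval that leaves out a decrease of the size seen for the ligands. Pycard (gene ID 66824, chr7:127991373-127993867), the adaptor that links sensor and caspase, had 38.7 and 36.6 FPKM with vehicle and 31.6 and 31.1 FPKM with galectin-1. Its groups did not overlap, at means of 37.6 ± 1.49 and 31.4 ± 0.286 FPKM (SD, n = 2). The log2 difference of -0.26, with a 95% interval from -0.37 to -0.14, missed the threshold (limma, adjusted p = 0.0614).

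Casp1 (gene ID 12362, chr9:5298517-5307281), which encodes the protease that cleaves the precursors of interleukin 1 beta and interleukin 18, had 252 and 262 FPKM with vehicle and 258 and 252 FPKM with galectin-1. The groups overlapped, and the log2 difference was -0.01 with a 95% interval from -0.09 to 0.07 (limma, adjusted p = 0.907). Casp4 (gene ID 12363, chr9:5308849-5336791), the cytosolic LPS receptor, begins 1567 bp from the end of Casp1. It had 211 and 217 FPKM with vehicle and 251 and 239 FPKM with galectin-1. Both galectin-1 libraries were above both vehicle libraries, with means of 214 ± 3.97 and 245 ± 8.76 FPKM (SD, n = 2). Its log2 difference of 0.19, with a 95% interval from 0.10 to 0.28, did not pass (limma, adjusted p = 0.0683). The ratio of Casp4 to Casp1 FPKM within a library was 0.839 and 0.829 with vehicle and 0.973 and 0.948 with galectin-1, higher in both galectin-1 libraries than in either vehicle library.

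Gsdmd (gene ID 69146, chr15:75862144-75867408), the pore former cut by both caspases, had 118 and 116 FPKM with vehicle and 114 and 122 FPKM with galectin-1. The galectin-1 libraries lay on either side of the vehicle libraries, and the log2 difference was 0.01 with a 95% interval from -0.09 to 0.11 (limma, adjusted p = 0.914). Its sign turned under each other scaling of the libraries, with differences of -0.02, -0.01 and -0.01 after quantile normalization, scaling to equal totals and scaling to equal upper quartiles.

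The rest of the pathway was read from 6 lists with 56 genes, all found, of which 39 were tested. In limma none passed in either direction, and 12 of the 39 had an unadjusted p under 0.05, beside 23.2% of all genes tested. Differences were positive for 17 and negative for 22, with a median of -0.03 on the log2 scale against 0.00 for all genes tested. Of 6 other interleukin 1 family ligands, 2 were tested and both differences were negative. The alarmin gene Il33 had 3.37 and 3.16 FPKM on average with vehicle and galectin-1 (log2 difference -0.07), and Il1f9, which encodes interleukin 36 gamma, had 2.19 and 1.51 FPKM (-0.32), where the vehicle replicates were far apart and overlapped the galectin-1 libraries. Il1f5, Il1f8 and Il1f10 were listed at 0 in all 4 libraries.

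Of 9 receptors and binding proteins, 5 were tested, with a median log2 difference of -0.15. Il1rl2, the receptor chain for interleukin 36, had 2.48 and 2.34 FPKM with vehicle and 1.68 and 1.37 FPKM with galectin-1 (log2 difference -0.43, limma adjusted p = 0.10). Il18rap, the accessory chain of the interleukin 18 receptor, had 6.51 and 7.77 FPKM with vehicle and 6.14 and 5.30 FPKM with galectin-1 (-0.28, adjusted p = 0.196). The binding chain Il18r1 had at most 0.0520 FPKM. Il18bp, which encodes a soluble protein that neutralises interleukin 18, had a mean of 68.9 FPKM with vehicle and 63.8 FPKM with galectin-1, with overlapping groups (-0.11).

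All 11 adaptors and kinases of the interleukin 1 receptor were tested, with 7 positive and 4 negative differences and a median of 0.06 on the log2 scale. The ubiquitin ligase gene Peli1 had means of 146 and 159 FPKM (log2 difference 0.13, limma adjusted p = 0.0986) and the kinase adaptor gene Tab2 had 144 and 157 FPKM (0.12, adjusted p = 0.0995). Of 12 other inflammasome sensors, 8 were tested with a median of -0.07. Nlrp1b, a sensor of microbial proteases, had means of 2.12 and 1.45 FPKM with vehicle and galectin-1 (-0.34, adjusted p = 0.165), and Naip6 had 5.09 and 3.87 FPKM (-0.32, adjusted p = 0.236). The Nlrp1 and Naip genes are sets of close relatives, between which reads may be divided. Aim2, the sensor of cytosolic DNA, was the most abundant of the other sensors at 59.0 and 60.9 FPKM (0.04).

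Of 10 regulators of NLRP3 activation, 9 were tested, with a median of -0.01. Gbp5, a guanylate-binding protein, had 1044 and 1050.02 FPKM with vehicle and 942 and 934 FPKM with galectin-1 (log2 difference -0.16, limma adjusted p = 0.0555). The potassium channel gene Kcnk6 had means of 3.07 and 3.78 FPKM (0.23, adjusted p = 0.192). Nek7, a kinase that binds NLRP3, had 28.2 and 28.6 FPKM (0.02), and P2rx7, the receptor through which extracellular ATP triggers NLRP3, had 7.07 and 7.48 FPKM (0.07). Of 8 cell death effectors, 4 were tested, with a median of -0.09.

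**Figure D4:**
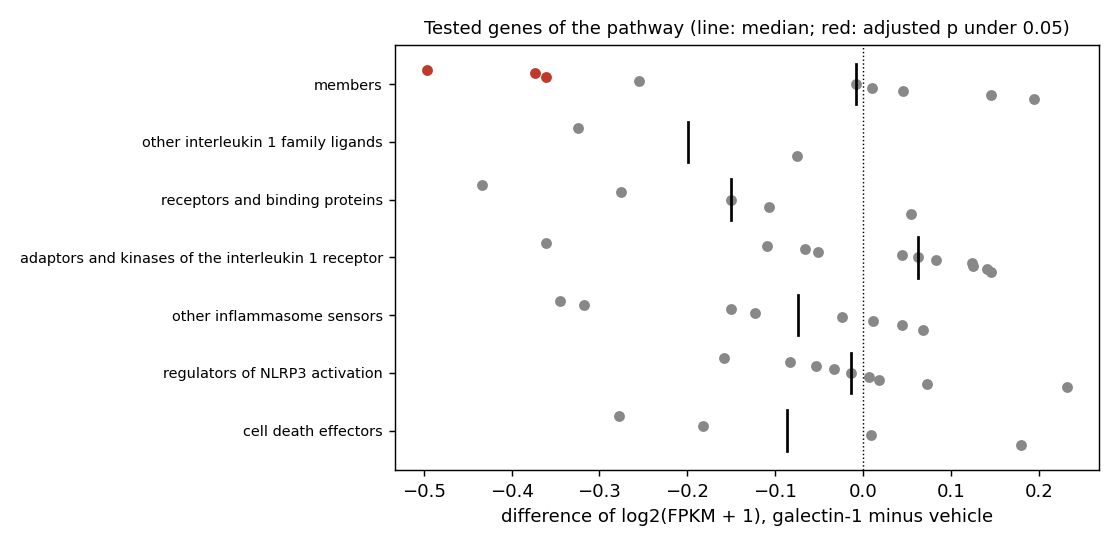
Difference of log2(FPKM + 1), galectin-1 minus vehicle (horizontal axis), of each tested gene among the 9 members and in the 6 other pathway lists, 1 point per gene, with the median of each list as a black line. Red points, all 3 among the members, have an adjusted p under 0.05, and the list medians lie between -0.20 and 0.06.

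Likeness to Il1b over the 4 libraries was measured by the root mean square difference of log2(FPKM + 1) values, each centred on its own mean. Symbols that start with Gm and a digit or with LOC, end in Rik or name small RNAs were left out. Among the 5 remaining genes most like Il1b were Fscn1 (0.0190), Mettl10 (0.0215), Snn (0.0220) and Pilra (0.0278). Il1a and Il18 had differences of 0.0704 and 0.0760 from Il1b by the same measure. With 4 libraries in 2 groups, likeness mostly means a similar step between the groups.

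Macrophage markers were high in all libraries: the 8 genes listed summed to 9342 to 9346 FPKM with vehicle and 10120.3 to 10136 FPKM with galectin-1. Most of each sum was Lyz2, with means of 5701 and 6246 FPKM. None of the 8 was called, but 7 differences were positive and 1, that of Mertk (log2 difference -0.17), negative. The groups did not overlap for any of the 8, as for 55.4% of all genes tested. In limma 6 of the 8 had an unadjusted p under 0.05, beside 23.2% of all genes tested. Neutrophils also express Il1b, Il1rn and Il1r2. Of 10 neutrophil markers 9 were found, with sums of 85.2 to 89.4 FPKM with vehicle and 82.9 to 83.3 FPKM with galectin-1, nearly all of it Csf3r. Elane, Ltf and Retnlg were listed at 0 in all libraries. The 8 dendritic cell markers summed to 24.3 to 24.4 FPKM with vehicle and 18.99 to 19.4 FPKM with galectin-1. The means of 4 of the 8 were lower with galectin-1 and those of the other 4 higher, and the lower sum came mostly from Fscn1 and Ccl22. Fscn1, which bundles actin in dendritic cells that have matured, went down from 11.5 to 8.01 FPKM (log2 difference -0.47, limma adjusted p = 0.0425), and Ccl22, a chemokine gene, had 9.04 and 7.34 FPKM (-0.27, adjusted p = 0.0911). Itgax had 1.66 and 1.76 FPKM and Zbtb46 0.165 and 0.308 FPKM, higher with galectin-1, while Flt3 and Cd209a were at or under 0.0581 FPKM. The part of these markers in the ligand result was not tested. The 6 T and NK cell markers summed to 3.65 to 4.30 FPKM, almost all Cd4, and the 4 B cell markers to at most 0.283 FPKM. The 6 fibroblast markers summed to 14.1 to 14.2 FPKM with vehicle and 17.2 to 17.8 FPKM with galectin-1.

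Library totals were 541138 to 557661 FPKM, and 13636 to 13785 symbols lay above 0. The depths of the other libraries relative to vehicle replicate 1, from the steps of low FPKM values, were 0.879 to 1.02, and the absolute depth is unknown. The nuclear RNA Neat1 had 97.1 and 106 FPKM with vehicle and 44.9 and 44.2 FPKM with galectin-1. It was called lower (log2 difference -1.17, limma adjusted p = 0.00174) and ranked 3 by p among all genes tested, ahead of Il1b. Malat1 had 94.5 and 96.2 FPKM with vehicle against 66.9 and 78.7 FPKM with galectin-1 and did not pass (-0.39, limma adjusted p = 0.0694). These RNAs, read as signs of RNA quality, were lower in the same libraries as the ligands, and their part in the ligand result was not tested. Increases made up 50.9% of all calls, against 33.8%, 36.5% and 37.9% after quantile normalization, scaling to equal totals and scaling to equal upper quartiles, and 3 members were lower in each of these fits.

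**Figure D5:**
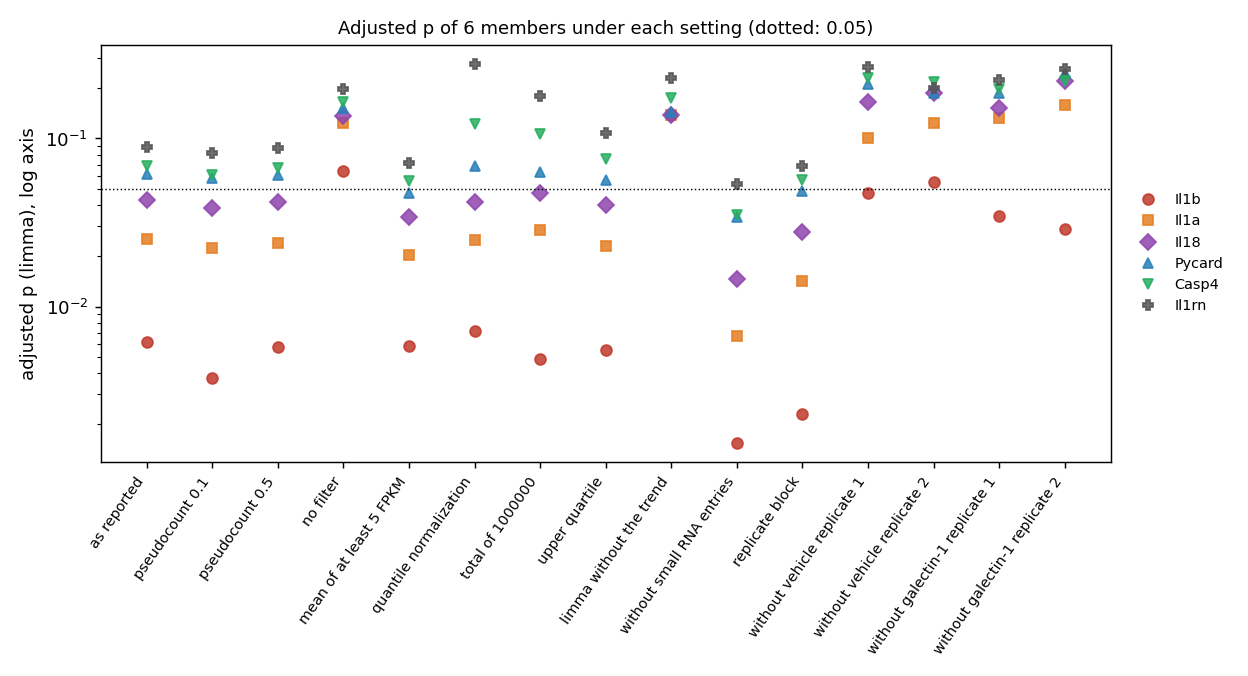
Adjusted p of limma (vertical log axis) for 6 members under the reported settings and the 14 alternatives (horizontal axis), with the threshold of 0.05 as a dotted line. Il1b lies under the line in 11 of the 14 alternatives and Il1a and Il18 in 8 each, while all 3 lie above it with no filter and in limma without the trend.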

How the data were processed

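Libraries for 4 samples came from a kit for stranded mRNA, per the labels' protocols, and sample titles gave the group and replicate of each. The authors deposited 1 FPKM value for each symbol in each library. Cufflinks 2.2.1, SAMtools 0.1.19, TopHat2 2.0.13 and Bowtie2 2.2.3 are listed, with the build mm10 and no roles, in the submitters' processing notes. Not given in the sources used here are the annotation, the use of strand and any scaling between libraries. No counts were used, so no count model was fitted and no intervals from counts are given.

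The analysis took the deposited values unscaled, on the log2(FPKM + 1) scale, on which changes of low genes look smaller than they are. The test used genes whose mean reached 1 FPKM and was run in limma (3.58.1, R 4.3.3) with a variance trend, 2 residual and 3.89 prior degrees of freedom, 2-sided, and p-values adjusted over all 9380 genes tested. The test was checked on simulated data with independent normal errors of the fitted variances. Such data cannot show how the test behaves on real libraries. The members, lists and tests were chosen with earlier results of these data known. All members are named, and from each other list the called genes and up to 2 of smallest p, apart from a few genes not reported here; the levels given for Il18r1, Il18bp, Aim2, Nek7, P2rx7, Gm14047, Gm14023, Bco2 and Tex12 were chosen after the values were seen. Of the 10 members, 9 matched a RefSeq promoter of GRCm38.p6, and Gsdmd had none. Alternatives were other pseudocounts, filters, scalings and variance models, a fit without small RNA entries, a block on replicate number and leaving out each library.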

Additional observations from a re-analysis of the deposited data

How the results depend on the processing

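No tested member except Casp1 and Gsdmd changed sign under any of the 14 alternatives. Over the fits that leave out 1 library, the log2 difference of Casp1 ranged from -0.0367 to 0.0196 and that of Gsdmd from -0.0388 to 0.0587. That of Gsdmd was -0.0194 after quantile normalization, -0.0146 with totals of 1000000 and -0.00660 with equal upper quartiles. With no filter, 0 members and 1 higher and 2 lower among all genes passed. In limma without the trend, 0 members, 1 higher and 1 lower gene passed, with 1939 genes at an unadjusted p under 0.05. With no filter 2552 genes had an unadjusted p under 0.05 in limma. Leaving out each library, where the lone library of a group is assumed to vary like the other group, gave 0 to 1 members lower and, among all genes, 4 to 9 higher and 3 to 12 lower, against 57 and 55 with all libraries. The cause was not tested.

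At a mean of at least 5 FPKM, 127 genes were higher and 99 lower among all tested, and Pycard passed (limma, adjusted p = 0.0473). Without small RNA entries the counts were 191 and 178; Pycard (adjusted p = 0.0343) and Casp4 (0.0350) passed, so that 1 member was higher. Quantile normalization made 24 genes higher and 47 lower, and totals of 1000000 made 19 higher and 33 lower. In the other pathway lists 1 gene was lower with a pseudocount of 0.1 and with equal upper quartiles. There 2 were lower at 5 FPKM, without small RNA entries and with the block. Same-numbered libraries barely deviated together over all genes tested (r = 0.0114, and 0.0333 without small RNA entries). Genes are not independent replicates, so these values cannot exclude pairing, and the reported test did not take the numbers as pairs. With the replicate block 123 genes were higher and 117 lower, and Pycard passed (adjusted p = 0.0489). Il1r2 and other genes with a mean under 1 FPKM entered only the fit with no filter, and how far depth limits them is unknown, since only relative depth could be had.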
